A study of Mus musculus with 6 samples.

Results

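The 9 interferon-stimulated genes Isg15, Irf7, Ifit1, Ifit3, Oasl2, Rsad2, Bst2, Ifitm3 and Ifitm2 were taken by symbol from an RNA-seq table of 21761 genes, and all 9 were found. They were followed over 3 points of a mouse bone marrow culture driven by Flt3 ligand (Flt3L), the cytokine from which dendritic cells develop. The cells were bone marrow of male C57BL/6J mice, with no engineered allele named in the labels and no animal age given. Fresh marrow formed the day 0 group (libraries II and III), and cells grown with 20% of a supernatant from a Flt3L-transfected SP2/0 line formed the day 4 group (libraries I and II) and the day 7 group (libraries III and IV). The submitters titled the day 4 cells CMP, for common myeloid progenitor, and the day 7 cells BMDC, for bone-marrow derived dendritic cell. Per the labels both cultures were sampled as all live cells, with no sort, so every value is an average over a mixture. The labels name no added interferon, and supernatant was part of the medium at days 4 and 7 but not of the fresh marrow. Whether the libraries of a group came from separate mice or cultures is not stated, so each p-value measures only the spread between these libraries, which may be technical.

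Type I interferons bind the receptor Ifnar1-Ifnar2, and the kinases Jak1 and Tyk2 then set off assembly of a transcription factor complex that holds Irf9 and binds the interferon-stimulated response element (ISRE) of target promoters. The products of those targets restrict viruses at entry, translation, replication and release, and some, such as Irf7, feed back on interferon production. Myeloid cells and plasmacytoid dendritic cells hold several of these transcripts without infection, and stem and progenitor cells are known to hold a subset of them.

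ISRE cores lay close to the start of 7 of the 9 genes. Promoters from 250 bases before to 50 after the start were read from RefSeq (build GRCm38.p6), where all 9 genes matched, and searched on both strands for GAAANNGAAA, which reads TTTCNNTTTC on the other strand. The 7 genes were Isg15, Ifit1, Ifit3, Rsad2, Bst2, Ifitm3 and Ifitm2, while the windows of Irf7 and Oasl2 did not hold these letters. Of 32851 mouse promoters of that length, 3.44% held a match. The stretches around the matches are shown because they are what these genes share at the start site; each is written 5′ to 3′ on the strand of its gene, with the fixed letters of each match in capitals.
Isg15, chr4:156200856-156200915, minus strand: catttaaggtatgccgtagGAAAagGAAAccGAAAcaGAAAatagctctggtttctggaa
Ifit1, chr19:34640769-34640828, plus strand: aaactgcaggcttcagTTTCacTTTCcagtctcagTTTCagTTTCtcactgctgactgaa
Ifit3, chr19:34583365-34583424, plus strand: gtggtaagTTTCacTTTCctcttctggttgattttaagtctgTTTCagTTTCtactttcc
Rsad2, chr12:26456538-26456597, minus strand: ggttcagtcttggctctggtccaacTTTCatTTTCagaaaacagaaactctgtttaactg
Bst2, chr8:71537565-71537624, minus strand: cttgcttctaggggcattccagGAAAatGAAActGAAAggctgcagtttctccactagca
Ifitm3, chr7:141010716-141010742, minus strand: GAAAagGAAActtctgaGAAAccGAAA
Ifitm2, chr7:140955973-140956032, minus strand: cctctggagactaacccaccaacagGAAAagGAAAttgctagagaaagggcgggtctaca

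The matches differed in number, spacing and place. Isg15 held 3 matches that overlap, beginning 78, 72 and 66 bases before the start, so that its capitals run through 4 GAAA blocks. Ifit1 held 2 separate matches beginning 104 and 85 bases before the start, and Ifit3 held 2, at 156 and 122. Bst2 held 2 overlapping matches at 130 and 124. Rsad2 and Ifitm2 each held 1, at 120 and 46 bases before the start. Ifitm3 alone among the 9 held its matches after the start, at bases 3 and 20 of the transcript. The letters TTCNNNGAA, which are those of the gamma-activated site (GAS) of genes induced by interferon gamma, occurred in 2 of the 9 windows, those of Bst2 and Ifitm3, against 8.3% of all promoters, and in both genes the match overlapped an ISRE core. A match is a description of letters and not of binding, which was not measured here.

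**Figure D1:**
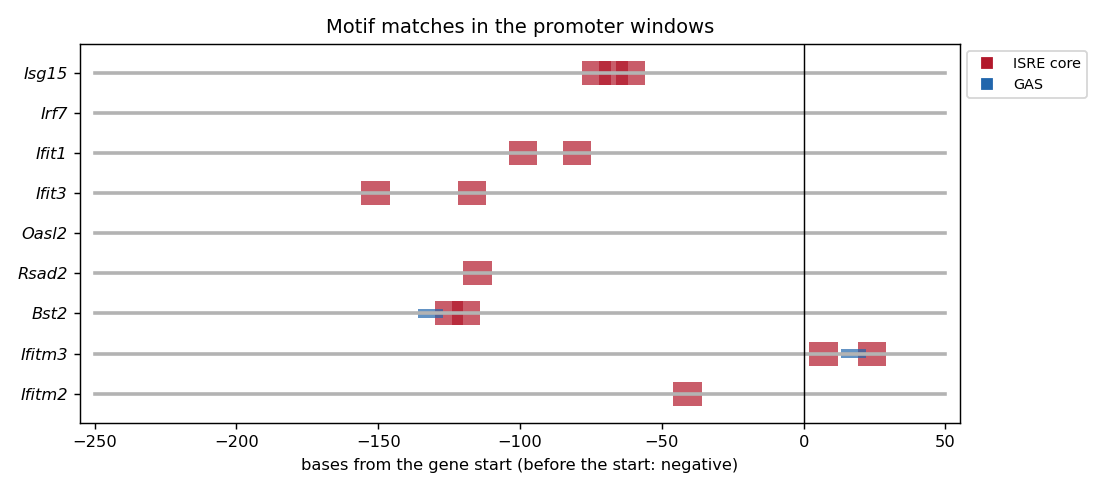
Motif matches in the promoter windows of the 9 genes, drawn to scale along 250 bases before to 50 bases after the gene start (x axis, bases from the start), with ISRE cores as tall red boxes and gamma-activated site letters as short blue boxes. Matches lie between 156 and 46 bases before the start in 6 genes and just after it in Ifitm3, and darker red marks overlapping matches.

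Levels are given in RPKM, reads per kilobase of exon scaled to the reads in genes of each library, and can be compared between genes because they are per length. The libraries were unequal in depth, with 157797 and 322837 reads in genes in the fresh marrow libraries, 1365635 and 3852628 in those of day 4, and 10951745 and 16149088 in those of day 7, so that 1 read of a gene 1 kb long was worth 6.34 RPKM in the smallest library and 0.0619 RPKM in the largest. A background was read from 1449 odorant, vomeronasal and trace amine receptor genes, which marrow cells are not known to use. Pooled, they gave 8.71 and 8.29 RPKM in fresh marrow, 4.33 and 0.846 RPKM in day 4 libraries I and II, and 0.0218 and 0.0236 RPKM at day 7. Of the 9 genes, 3 and 4 stood above that level in day 0 libraries II and III, 9 and 8 in day 4 libraries I and II, and all 9 in each day 7 library. At day 0 only Rsad2, Ifitm2 and Ifitm3 were above it in both libraries. The other 6 genes rested on 0 to 6 reads per day 0 library, so their level in fresh marrow could not be told from background at this depth. In bulk RNA, fewer cells of a type and less transcript per cell cannot be told apart.

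The labelled cell types were checked against markers. Macrophage markers dominated day 7, where all 11 stood above the receptor background and their summed level was 11250 and 12040 RPKM, against 134 and 126 RPKM in fresh marrow and 235 and 143 RPKM at day 4. Apoe reached 4730 and 4795 RPKM and Cd68 2009 and 2306 RPKM at day 7, whereas C1qa was listed at 0 in both day 0 libraries. The 13 conventional dendritic cell markers were also higher at day 7 in sum, at 1275 and 1372 RPKM. The sum was 136 and 112 RPKM in fresh marrow and 127 and 31.4 RPKM in day 4 libraries I and II. Limma called 4 of them higher and 3 lower at day 7 than at day 0, beside 11.3% and 29.3% of all genes. Most of the day 7 sum came from MHC class II genes, with H2-Ab1 at 666 and 730 RPKM, H2-Eb1 at 290 and 314 RPKM and H2-Aa at 268 and 258 RPKM. Itgax stood at 24.7 and 25.9 RPKM and Clec10a at 6.37 and 8.22 RPKM. In contrast, Zbtb46, the factor that defines that lineage, was at 0.0288 and 0.0283 RPKM at day 7, Xcr1 at 0.528 and 0 RPKM, and Flt3 at 1.22 and 1.97 RPKM. The 12 plasmacytoid markers summed to 58.4 and 65.6 RPKM at day 7, and to 33.9 to 79.1 RPKM in the other libraries. Of the 12, 4 and 5 stood above the receptor background in fresh marrow, 5 and 9 at day 4, and 11 and 9 at day 7. Siglech was at 5.44 and 8.22 RPKM at day 7, on 281 and 288 reads, and rested on 3 and 0 reads in fresh marrow. The sums therefore do not show whether plasmacytoid RNA changed from fresh marrow. At day 4, Kit was at 8.34 and 18.1 RPKM and Cd34 at 11.6 and 6.13 RPKM, beside 50510 and 37000 RPKM summed over 13 neutrophil markers, among them S100a8 at 10268 and 7097 RPKM. The names CMP and BMDC are therefore used here as labels only. The part of macrophage, dendritic cell or neutrophil RNA in the results that follow was not tested.

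The genes differed in which comparisons passed the test, and differences between genes were not tested. Irf7 and Oasl2 differed by 2.11 and 2.17 for day 7 against day 0 without a call, beside 2.17 with a call for Ifitm2. Bst2, Ifitm3 and Ifitm2 were higher at day 7 than in fresh marrow, Isg15 was higher from day 4 on, Rsad2 was lower at day 7, and the remaining 4 genes did not pass the test between any pair of days. Changes below are limma log2 fold changes of RPKM + 1 with their standard error (SE), from 1 model of all 6 libraries over 19279 genes, with p-values adjusted over those genes by the Benjamini-Hochberg method and a call at adjusted p under 0.05. The added 1 understates changes of low genes. With 1 day 7 library left out, limma called far fewer of all genes in both comparisons with day 7. A call lost that way is thus not particular to a gene.

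**Figure D2:**
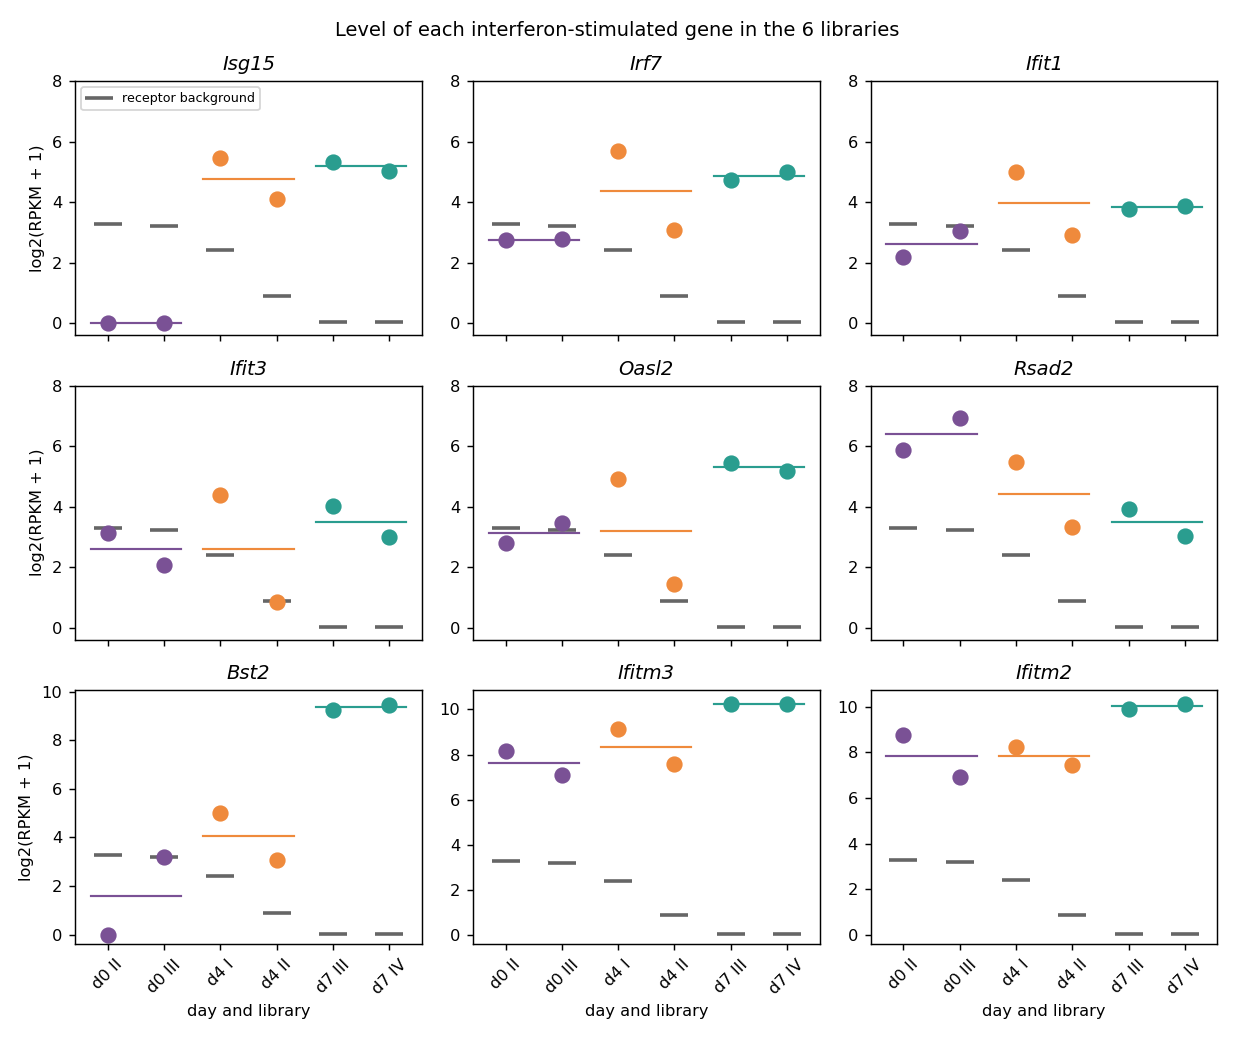
Level of each of the 9 genes in each of the 6 libraries as log2(RPKM + 1) on the y axis, with points for libraries in the order day 0 II and III, day 4 I and II, day 7 III and IV, coloured lines for group means of 2 libraries, and short grey lines for the pooled receptor background of that library. Bst2 stands near 9 units at day 7 and between 0 and 5 before, Rsad2 is highest at day 0, and day 4 library I lies above library II in every panel.

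Isg15 (Entrez 100038882) encodes the ubiquitin-like protein that is conjugated to other proteins and also secreted. It was at 0 RPKM in both day 0 libraries, at 42.6 and 16.1 RPKM in day 4 libraries I and II, and at 39.3 and 31.4 RPKM in day 7 libraries III and IV. These values rested on 0 and 0, 44 and 47, and 480 and 260 reads. Both day 0 libraries were thus below all others, and the day 4 and day 7 ranges overlapped. Against a floor of 3 reads over the day 0 group, Isg15 was at least 2.79-fold higher at day 4 and at least 4.37-fold higher at day 7. The fitted difference was 4.77 ± 0.52 (SE, n = 2 against 2) from day 0 to day 4 (limma adjusted p = 0.00721) and 5.18 ± 0.52 from day 0 to day 7 (limma adjusted p = 0.000741), values that depend on the added 1 because day 0 was at 0. From day 4 to day 7 the difference was 0.40 ± 0.52 (limma adjusted p = 0.555). The call at day 7 against day 0 held under all 18 alternative settings tried, while that at day 4 was lost with weights per library (limma adjusted p = 0.103), with voom, limma's count model, on the recovered reads (limma adjusted p = 0.18) and without either day 4 library (limma adjusted p = 0.0737 without I and 0.0955 without II).

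Irf7 (Entrez 54123) encodes the transcription factor that drives interferon alpha genes and is itself induced by interferon. Its level was 5.66 and 5.79 RPKM in fresh marrow, 50.9 and 7.36 RPKM in day 4 libraries I and II, and 25.5 and 31.0 RPKM at day 7. Both later groups lay above day 0, but day 4 library II was close to it, and the day 0 values rested on 4 and 2 reads. The difference was 1.63 ± 0.74 for day 4 against day 0 (limma adjusted p = 0.214), 0.48 ± 0.74 for day 7 against day 4 (limma adjusted p = 0.619) and 2.11 ± 0.74 for day 7 against day 0 (limma adjusted p = 0.0516). The last missed the threshold and passed it without either day 4 library (limma adjusted p = 0.019 without I and 0.0193 without II).

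Ifit1 (Entrez 15957) and Ifit3 (Entrez 15959) encode tetratricopeptide proteins, of which Ifit1 binds foreign 5′ RNA ends and blocks their translation. Ifit1 was at 3.52 and 7.21 RPKM in fresh marrow, 31.1 and 6.59 RPKM in day 4 libraries I and II, and 12.6 and 13.7 RPKM at day 7. Day 7 lay above day 0, and day 4 spanned both. No comparison of Ifit1 passed the test, with 1.21 ± 0.67 for day 7 against day 0 (limma adjusted p = 0.177). With the receptor background subtracted, an alternative chosen after seeing the data, that difference was 3.82 (limma adjusted p = 0.0453).

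Ifit3 was at 7.75 and 3.17 RPKM in fresh marrow, 19.8 and 0.779 RPKM in day 4 libraries I and II, and 15.0 and 6.99 RPKM at day 7. All 3 groups overlapped, and day 4 alone held both the highest and the lowest value of the course. Its difference was 0.01 ± 1.03 for day 4 against day 0 (limma adjusted p = 0.998) and 0.91 ± 1.03 for day 7 against day 0 (limma adjusted p = 0.477). Day 4 library II gave 6 reads of Ifit3, a level below its receptor background of 0.846 RPKM. Reads of Ifit3 and its near copy Ifit3b, and of Ifit1 and its relatives, could have been split by the counting, so these 4 values per day are uncertain in that respect. Ifit3b itself was at 0 and 2.76 RPKM in fresh marrow, 19.7 and 1.13 RPKM in day 4 libraries I and II, and 2.56 and 2.11 RPKM at day 7.

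Oasl2 (Entrez 23962) encodes a relative of the oligoadenylate synthetases with ubiquitin-like domains. It was at 5.93 and 10.1 RPKM in fresh marrow, 29.4 and 1.74 RPKM in day 4 libraries I and II, and 42.4 and 34.9 RPKM at day 7. Both day 7 libraries were above the other 4. The difference of 2.17 ± 0.95 for day 7 against day 0 did not pass the test (limma adjusted p = 0.0963), nor did 2.11 ± 0.95 for day 7 against day 4 (limma adjusted p = 0.181). Without either day 4 library the first passed (limma adjusted p = 0.0281 without I and 0.0275 without II).

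Rsad2 (Entrez 58185) encodes viperin, a radical SAM enzyme that makes a chain-terminating nucleotide. It was the only gene of the 9 with a negative difference between day 7 and day 0, with 57.6 and 120.9 RPKM in fresh marrow, 43.6 and 8.99 RPKM in day 4 libraries I and II, and 14.2 and 7.14 RPKM at day 7. Fresh marrow was above both later groups, which overlapped each other, and its values rested on 79 and 81 reads and lay above the receptor background of 8.71 and 8.29 RPKM. Rsad2 fell by 2.93 ± 0.72 on the log2 scale from day 0 to day 7 (limma adjusted p = 0.019), and pooled reads gave a day 7 level of 0.145 times that of day 0 (exact 95% interval 0.123 to 0.172, counting error only). The difference was -2.00 ± 0.72 for day 4 against day 0 (limma adjusted p = 0.137) and -0.92 ± 0.72 for day 7 against day 4 (limma adjusted p = 0.376). The call was lost without day 0 library III (-2.40, limma adjusted p = 0.058) and without day 7 library IV (-2.48, limma adjusted p = 0.114), and with the receptor background subtracted the difference was -2.76 (limma adjusted p = 0.145). Cmpk2, the neighbouring interferon-stimulated kinase that supplies the substrate of viperin, had 19.4 and 27.8 RPKM in fresh marrow, 55.3 and 15.5 RPKM in day 4 libraries I and II and 7.18 and 6.96 RPKM in the last group.

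Bst2 (Entrez 69550) encodes tetherin, which holds budding virions at the membrane and is the antigen of plasmacytoid dendritic cells stained by PDCA-1 antibodies. It was at 0 and 8.27 RPKM in fresh marrow, on 0 and 1 reads, at 31.5 and 7.45 RPKM in day 4 libraries I and II, and at 613 and 714 RPKM at day 7. Day 7 was far above both earlier groups, which overlapped each other. Bst2 rose by 5.32 ± 0.99 from day 4 to day 7 (limma adjusted p = 0.0117), and pooled reads gave a 47.5-fold higher level (exact 95% interval 36.5 to 63.1). From day 0 to day 7 it rose by 7.77 ± 0.99 (limma adjusted p = 0.00193), a pooled ratio of 241 whose exact 95% interval of 43.2 to 9510 reflects the single day 0 read. The call at day 7 against day 0 held under all 18 alternatives. That at day 7 against day 4 was lost without either day 4 library (6.29 with limma adjusted p = 0.172 without I and 4.35 with limma adjusted p = 0.154 without II). The difference of 2.45 ± 0.99 for day 4 against day 0 did not pass the test (limma adjusted p = 0.171), but did without day 0 library III (4.05, limma adjusted p = 0.0169). From day 4 to day 7 limma also called 10 of 11 macrophage, 4 of 13 conventional dendritic cell and 2 of 12 plasmacytoid markers higher. The share of all genes was 5.85%. The 2 plasmacytoid markers were Cox6a2 (1.11 and 0, then 13.6 and 21.5 RPKM) and Cd300c (6.40 and 2.64, then 22.0 and 21.7 RPKM). Also called higher were 2 of 8 monocyte, 1 of 10 T and NK, 1 of 10 B lineage and 1 of 11 progenitor markers. The part of these cell types in the rise of Bst2 was not tested.

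Ifitm3 (Entrez 66141) and Ifitm2 (Entrez 80876) encode small membrane proteins that block fusion of viruses in endosomes. Ifitm3 was at 282 and 137 RPKM in fresh marrow, 553 and 193 RPKM in day 4 libraries I and II, and 1225 and 1216 RPKM at day 7. Day 7 was above all 4 other libraries, and days 0 and 4 overlapped. Ifitm3 rose by 2.63 ± 0.67 from day 0 to day 7 (limma adjusted p = 0.0209), with a pooled ratio of 5.21 (exact 95% interval 4.14 to 6.65). This rise was not called with the receptor background subtracted (2.70, limma adjusted p = 0.0923). Nor was it with reads thinned to the smallest library (2.66, limma adjusted p = 0.0588). The difference was 0.73 ± 0.67 for day 4 against day 0 (limma adjusted p = 0.529) and 1.90 ± 0.67 for day 7 against day 4 (limma adjusted p = 0.106). The call was lost without either day 7 library (limma adjusted p = 0.135 without III and 0.147 without IV) and with quantile normalization (1.25, limma adjusted p = 0.197), while day 7 against day 4 passed without either day 0 library (limma adjusted p = 0.0283 without II and 0.0288 without III).

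Ifitm2 was at 435 and 121 RPKM in fresh marrow, 304 and 176 RPKM in day 4 libraries I and II, and 952 and 1124 RPKM at day 7. It showed the same order as Ifitm3, with day 7 above all other libraries and days 0 and 4 overlapping. The rise from day 0 to day 7 was 2.17 ± 0.69 (limma adjusted p = 0.0384), with a pooled ratio of 3.08 (exact 95% interval 2.53 to 3.79). That from day 4 to day 7 was 2.16 ± 0.69 (limma adjusted p = 0.0801), and day 4 and day 0 differed by 0.01 ± 0.69 (limma adjusted p = 0.997). The call of day 7 against day 0 was the least steady of the 9 genes. It was lost under 10 of 18 alternatives, among them quantile normalization (0.75, limma adjusted p = 0.356) and every omission of 1 library except day 0 II, with limma adjusted p = 0.0527 without day 0 III, 0.111 and 0.113 without day 4 I and II, and 0.167 and 0.215 without day 7 III and IV. Day 7 against day 4 passed without either day 0 library (limma adjusted p = 0.00391 without II and 0.00405 without III). The coding regions of Ifitm2 and Ifitm3 are alike enough that reads could have been split between them.

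In order of level at day 7, Ifitm3 had the highest mean (1220 ± 5.85 RPKM, SD, n = 2), followed by Ifitm2 (1038 ± 122 RPKM) and Bst2 (664 ± 70.8 RPKM), and the ranges of these 3 did not overlap. Then came Oasl2 (38.6 ± 5.32 RPKM), Isg15 (35.4 ± 5.60 RPKM) and Irf7 (28.2 ± 3.86 RPKM), of which Oasl2 and Isg15 overlapped. Ifit1 (13.2 ± 0.738 RPKM), Ifit3 (11.0 ± 5.68 RPKM) and Rsad2 (10.7 ± 5.0 RPKM) were lowest and each overlapped its neighbour. In fresh marrow the order was Ifitm2 (278 ± 222 RPKM), Ifitm3 (210 ± 103 RPKM) and Rsad2 (89.3 ± 44.7 RPKM), with Rsad2 last at day 7 among the same 9 genes, and the other 6 genes lay at or near background. At day 4 the means ran from 373 ± 254 RPKM for Ifitm3 and 240 ± 90.3 RPKM for Ifitm2 to 10.3 ± 13.4 RPKM for Ifit3, whose SD was larger than its mean.

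By count, 1 of the 9 genes was called higher at day 4 than at day 0 (Isg15), where limma called 3.66% of all tested genes higher and 1.92% lower. At day 7 against day 4, 1 of 9 was called higher (Bst2), against 5.85% of all genes higher and 6.75% lower. At day 7 against day 0, 4 of 9 were called higher (Isg15, Bst2, Ifitm3 and Ifitm2) and 1 lower (Rsad2), against 11.3% of all genes higher and 29.3% lower. The median difference of the 9 genes was 0.73, 0.90 and 2.17 in these comparisons, beside -0.40, -0.81 and -1.14 for all genes, and 8, 7 and 8 of the 9 were positive, beside 36.2%, 27.3% and 27.4% of all genes. The comparisons share libraries and are not independent of each other. Quantile normalization moved the median of all genes at day 7 against day 0 to -0.16 and the split of calls to 1245 higher and 1082 lower, from 2183 and 5649, while the median of the 9 genes was 2.03 and 3 of them were called. The median of all genes was not below 0 under some other settings. Over the 3960 genes that passed a filter at 20 RPKM it was 0.69, 0.40 and 1.11 in the 3 comparisons, beside 0.73, 1.90 and 2.17 for the 7 of the 9 genes that passed, a nearly equal value at day 4. With the receptor background subtracted it was 0.19, 0.00 and 0.27, beside 2.07, 1.48 and 3.82 for the 9 genes.

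**Figure D3:**
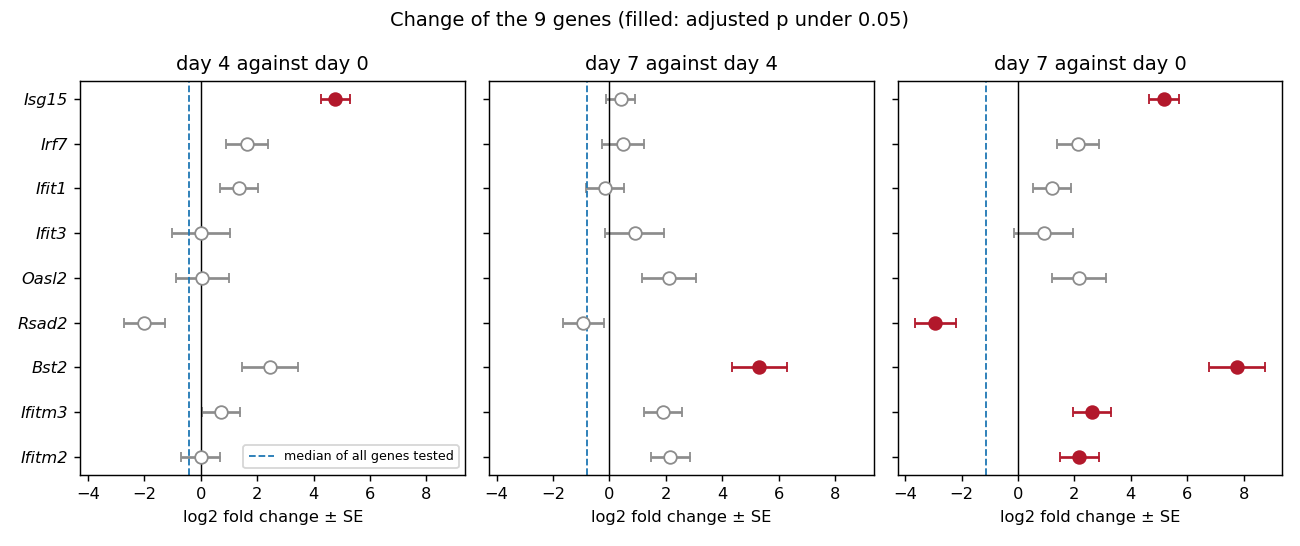
Limma log2 fold change of RPKM + 1 (x axis) with standard error bars for each of the 9 genes in the 3 comparisons, with filled red points for adjusted p under 0.05 and open grey points otherwise, and a dashed line at the median of all 19279 genes tested. Rsad2 is the only filled point left of 0, at -2.93 for day 7 against day 0, and 8 of the 9 points lie right of 0 in that panel.

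The day 4 libraries differed from each other in these genes. All 9 were higher in library I than in library II, and 8 of 9 were over 2-fold higher on the log2(RPKM + 1) scale, against 33.6% of all genes, of which 73.0% were higher in I. The median log2 ratio was 2.08 for the 9 genes and 0.62 for all genes. By pooled reads the ratio of I to II was 25.4 for Ifit3 (exact 95% interval 10.9 to 72.2), 16.9 for Oasl2 (10.6 to 28.3) and 6.92 for Irf7 (5.12 to 9.45). It was 4.86 for Rsad2, 4.72 for Ifit1, 4.23 for Bst2, 2.86 for Ifitm3 and 2.64 for Isg15, and smallest for Ifitm2 at 1.73 (1.47 to 2.02). These intervals cover counting error only, and 1 pair of libraries gives no test of a difference. The receptor background was also higher in I, at 4.33 against 0.846 RPKM. A gene at background in both libraries would therefore also be over 2-fold higher in I. Some marker sums of other cells were higher in I too. Conventional dendritic cell markers summed to 127 RPKM in I and 31.4 RPKM in II, with 9 of 13 over 2-fold higher in I and a median log2 ratio of 1.29. Of 10 tested T and NK cell markers all were higher in I, 8 over 2-fold, with a median of 1.71. Above the background in I and II stood 7 and 8 of the 13 dendritic cell markers and 6 and 2 of 11 listed T and NK markers. The plasmacytoid and macrophage sums were 79.1 and 235 RPKM in I and 33.9 and 143 RPKM in II, with 5 of 12 and 4 of 11 markers over 2-fold higher. The part of these in the gap was not tested. Among 55 other interferon-stimulated genes, 53 were higher in I and 37 over 2-fold, with a median log2 ratio of 1.50. Of 56 listed, 47 and 45 stood above the background in I and II. The part of the background in these medians was not tested. All 14 GTPases induced by interferon gamma were higher in I, 8 of them over 2-fold. The 6 interferon receptors were all higher in I, none over 2-fold, and 5 of 13 signalling genes were higher. At day 7 the same 9 genes had a median log2 ratio of 0.01 between libraries III and IV.

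The median difference of the 9 genes at day 4 depended on which day 4 library was kept. Without library I their median for day 4 against day 0 was -0.03, with 4 of 9 positive. Without library II it was 1.79, with 8 of 9 positive. By gene, Isg15, Irf7, Ifit1, Bst2 and Rsad2 kept their sign for day 4 against day 0 under every alternative. Ifit3, Oasl2, Ifitm3 and Ifitm2 changed sign without library I. For day 7 against day 4 the medians were 2.55 with all 9 positive without library I and -0.27 with 4 of 9 positive without library II. With either library left out, limma called 0 of the 19279 genes in both steps, although 6499 and 3437 had an unadjusted p under 0.05 for day 4 against day 0, and 4062 and 7160 for day 7 against day 4. Every call named here for those steps therefore needed both day 4 libraries.

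**Figure D4:**
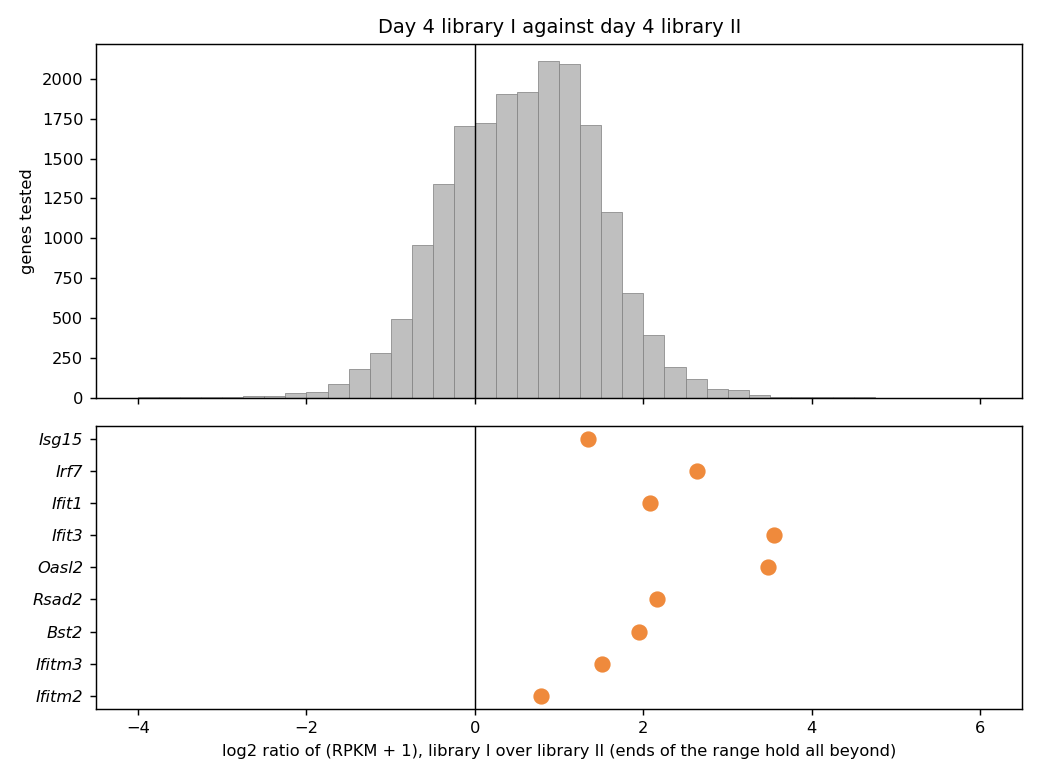
Log2 ratio of RPKM + 1 in day 4 library I over library II (x axis), as a histogram of the 19279 tested genes (upper panel, y axis in genes, end bins holding all values beyond) and as 1 point for each of the 9 genes (lower panel). All 9 points lie right of 0, with Ifit3 and Oasl2 farthest out.

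Among the 55 other tested interferon-stimulated genes the course was mixed. At day 4 against day 0, 4 were called higher (Ifi27, Ifi35, Samd9l and Slfn2) and 1 lower (Xaf1). The shares of all genes were 3.66% and 1.92%. At day 7 against day 4, 8 were called higher and 3 lower, beside 5.85% and 6.75% of all genes. At day 7 against day 0, 11 were called higher and 3 lower, beside 11.3% and 29.3% of all genes. The medians of the 55 genes were -0.03, 0.56 and 0.30. Fewer of the 55 were called higher in the last 2 comparisons without either day 7 library, as was also so for all genes. The calls in the first 2 comparisons needed both day 4 libraries, as did those of all genes. Ly6e, a lipid-anchored membrane protein that restricts coronaviruses, was at 155 and 83.1 RPKM in fresh marrow, 79.9 and 44.3 RPKM in day 4 libraries I and II and 842 and 1042 RPKM at day 7, and rose by 3.95 ± 0.51 from day 4 to day 7 (limma adjusted p = 0.00252). Lgals3bp, a secreted glycoprotein, went from 14.3 and 8.77 RPKM in fresh marrow and 5.40 and 2.99 RPKM at day 4 to 327 and 334 RPKM at day 7. Samd9l, which restricts translation in infected cells, was instead highest at day 4, at 325 and 223 RPKM against 15.1 and 17.8 RPKM before and 11.1 and 6.73 RPKM after. Slfn2, which guards T cell and monocyte quiescence, was highest at day 4 as well, at 469 and 346 RPKM, but higher after (92.4 and 122 RPKM) than before (63.3 and 72.4 RPKM). Isg20, an RNA exonuclease, fell by 2.28 ± 0.41 from day 0 to day 7 (limma adjusted p = 0.00727; limma adjusted p = 0.0665 without day 7 library III). Several canonical genes of the response did not pass the test from day 0 to day 7. Mx1 differed by 0.04 (limma adjusted p = 0.973), Ifit2 by -0.07 (limma adjusted p = 0.938) and Usp18 by 1.07 (limma adjusted p = 0.251). In fresh marrow these genes rested on 2 to 8 reads per library, near the receptor background of 8.71 and 8.29 RPKM. At this depth a fall from that level could not be measured, and a rise only if large, as for Bst2.

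**Figure D5:**
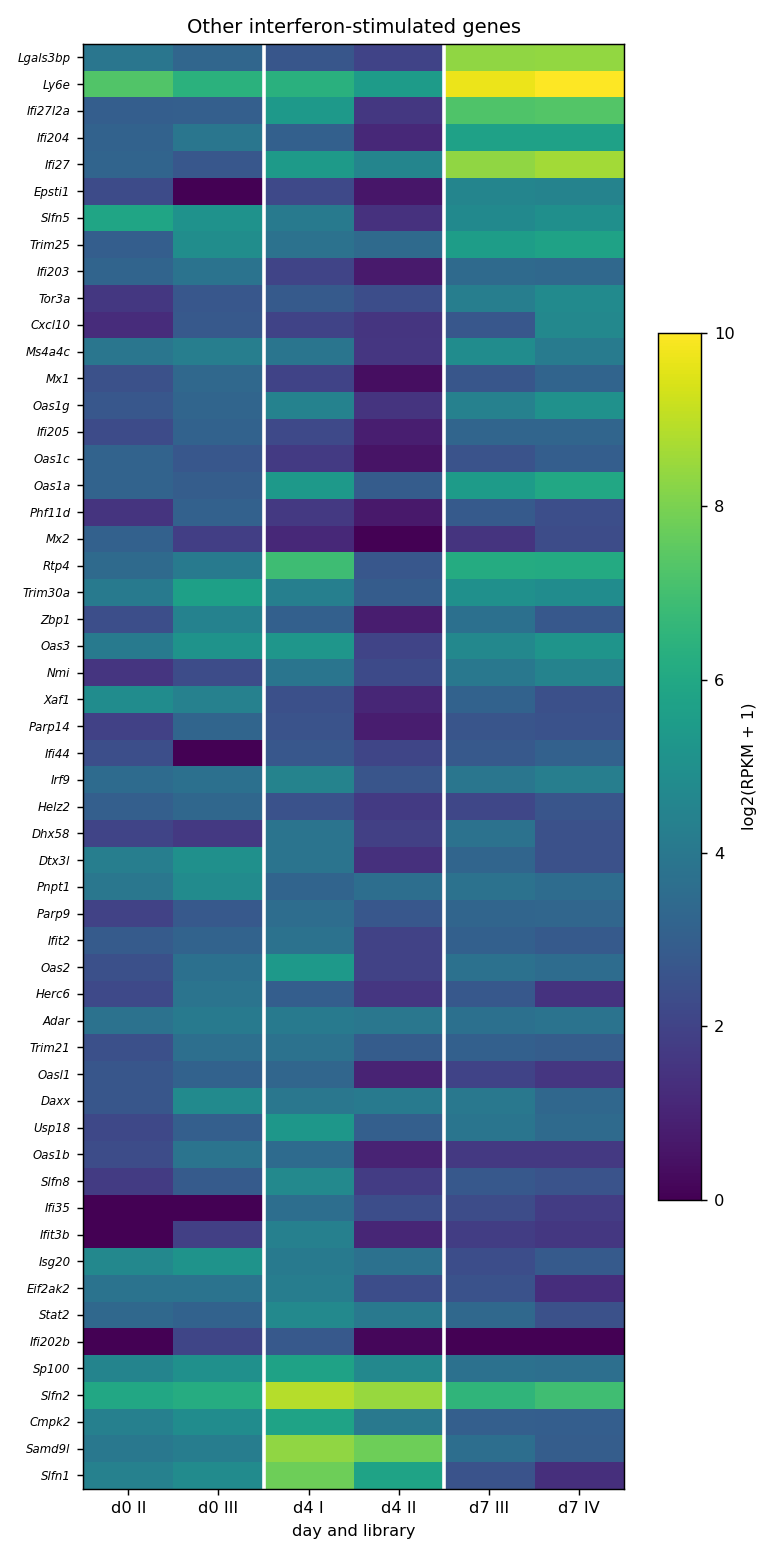
Level of other interferon-stimulated genes in the 6 libraries (columns, in order of day) as log2(RPKM + 1), with colour from 0 (dark) to 10 (light) and rows ordered by the difference of day 7 and day 4. Lgals3bp and Ly6e are bright only or mostly at day 7, Samd9l and Slfn2 at day 4, and most rows are darker in day 4 library II than in library I.

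The Ifitm family divided. Of 5 relatives outside the 9 genes, none was called higher at day 7 than at day 0. Limma called 2 lower, Ifitm5 and Ifitm6, beside 29.3% of all genes. Ifitm5 rested on 2 and 1 reads in fresh marrow and lost the call with the receptor background subtracted (-0.38, limma adjusted p = 0.436). Ifitm6, a relative encoded near Ifitm2 and Ifitm3, was at 762 and 340 RPKM in fresh marrow. Its level was 1067 and 592 RPKM in day 4 libraries I and II, and 27.8 and 19.2 RPKM at day 7. It fell by 5.04 ± 0.56 from day 4 to day 7 (limma adjusted p = 0.00132) and by 4.40 ± 0.56 from day 0 to day 7 (limma adjusted p = 0.00196), the opposite direction to Ifitm2 and Ifitm3. The 13 neutrophil markers moved with it, from 67260 and 8829 RPKM in fresh marrow and 50510 and 37000 RPKM at day 4 to 202 and 206 RPKM at day 7, and their part was not tested. Ifitm1 was at 32.8 and 30.5 RPKM in fresh marrow and 14.1 and 4.75 RPKM in day 4 libraries I and II. At day 7 it was at 32.2 and 30.8 RPKM. Limma called Ifitm1 higher at day 7 than at day 4 (1.80), the direction of Ifitm2 and Ifitm3. This call was lost under 9 of 18 alternatives. None of the 5 relatives matched in the promoter table held an ISRE core, whereas Ifitm2 and Ifitm3 did.

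The ligands were near or below detection. Of 21 interferon genes in the table, 19 were at 0 in day 7 library III and all 21 in library IV, where the summed level was 0.205 and 0 RPKM. Of the 11 that were tested, 5 were called lower at day 7 than at day 0, beside 29.3% of all genes. These calls were lost without either day 7 library. Among them was Ifnb1, at 4.02 and 8.23 RPKM in fresh marrow, which is 2 reads in all, and at 0 at day 7. All 5 rested on 1 or 2 reads per day 0 library. A read there was worth far more RPKM than at day 7, so these calls do not show a fall. With the receptor background subtracted, Ifnb1, Ifnab (-0.56, limma adjusted p = 0.447) and Ifne (-0.59, limma adjusted p = 0.447) lost the call, while Ifna9 and Ifnl3 kept it. In fresh marrow the family summed to 73.4 and 79.3 RPKM, with 3 and 6 of the 21 genes above the receptor background. Ifng, the type II ligand, was at 0 in both day 0 and both day 7 libraries.

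Of the 6 receptor genes, 4 and 5 stood above the background of odorant and like receptor genes in day 0 libraries II and III. At day 4 all 6 did in each library, and 5 did in each library at day 7. Ifnar2, the signalling chain of the type I receptor, was at 8.37 and 13.3 RPKM in fresh marrow, on 9 and 7 reads. The first value lay below its background of 8.71 RPKM. Its level was 59.3 and 41.8 RPKM in day 4 libraries I and II, and 76.6 and 64.6 RPKM at day 7. Ifnar2 rose by 2.13 ± 0.40 to day 4 (limma adjusted p = 0.0254) and by 2.62 ± 0.40 to day 7 (limma adjusted p = 0.00374). With the background subtracted Ifnar2 lost the call at day 4 (4.30, limma adjusted p = 0.0906) and kept that at day 7. Its partner Ifnar1 was at 23.3 and 14.3, 16.6 and 9.99, and 9.76 and 10.5 RPKM, with a difference of -0.79 for day 7 against day 0 (limma adjusted p = 0.17). Ifngr2 rose by 2.73 ± 0.44 from day 0 to day 7 (limma adjusted p = 0.00469), and Ifnlr1, the lambda receptor chain, was at 30.9 and 25.1 RPKM at day 4 and at 0 at day 7, at least 964-fold lower. Of 13 genes that signal from the receptors, 1 was called, the phosphatase Ptpn6. It was higher at day 4 and at day 7 than at day 0, where 3.66% and 11.3% of all genes were called higher. The call of Ptpn6 at day 7 was lost without any 1 of the day 4 or day 7 libraries.

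Among the 9 interferon regulatory factors, Irf7 included, limma called 2 higher at day 7 than at day 4, Irf5 and Irf8. The share of all genes was 5.85%. At day 7 against day 0, 3 were called higher and 1 lower, beside 11.3% and 29.3% of all genes. Irf8, which dendritic cells and monocytes require, was at 14.9 and 15.2 RPKM in fresh marrow, 7.50 and 4.78 RPKM in day 4 libraries I and II, and 38.8 and 35.6 RPKM at day 7. Irf5, a factor of macrophage activation, was at 10.5 and 23.9, 15.2 and 9.90, and 101 and 96.3 RPKM. At day 7 against day 0 the call of Irf5 held with each library left out, while those of Irf8 and of Irf4 (lower) were lost without either day 7 library and that of Irf3 without any library except day 0 II. Irf3, the constitutive partner of Irf7, was at 7.20 and 2.45, 15.0 and 16.7, and 13.7 and 13.6 RPKM, and Irf9 differed by 0.53 between day 7 and day 0 (limma adjusted p = 0.469). Limma called 3 of 20 sensors and adaptors upstream of interferon higher and 1 lower at day 7 than at day 0. The shares of all genes were 11.3% and 29.3%. These calls were lost without either day 7 library. The endosomal receptor Tlr7 was at 4.61 and 4.72 RPKM in fresh marrow and 26.6 and 23.7 RPKM at day 7. Tlr9 was at 6.25 and 7.30 RPKM in fresh marrow and at 0.0178 and 0 RPKM at day 7. Both lay below the receptor background in fresh marrow, Tlr7 on 6 and 3 reads and Tlr9 on 7 and 4.

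Of 14 GTPases induced by interferon gamma, 1 was called higher (Ifi47) and 4 lower (Gbp4, Gbp7, Gbp8 and Iigp1) at day 7 against day 0, beside 11.3% and 29.3% of all genes, so that the share called lower was near that of all genes. Ifi47 rose by 1.74 ± 0.40 (limma adjusted p = 0.0155), and lost the call without either day 7 library (limma adjusted p = 0.114 without each). The 4 lower ones also lost the call without either day 7 library, and were at 2.88 to 9.82 RPKM on average at day 0, near the receptor background, and after its subtraction Gbp7, Gbp8 and Iigp1 changed sign. Among RefSeq promoters 9 of these genes were found and 8 held an ISRE core, as did 14 of 40 other interferon-stimulated genes. An ISRE core in the window thus went with rising genes such as Bst2, with the falling Rsad2 and with GTPases that were not called.

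The genes whose levels ran most like each of the 9 were sought among 2835 genes whose mean reached 20 RPKM, by Pearson correlation of log2(RPKM + 1) over the 6 libraries, which share their depth and day. Bst2 was most like Trappc1 (r = 0.999) and Nceh1 (r = 0.997), Ifitm3 like Trf (r = 0.995) and Cd84 (r = 0.991), and Ifitm2 like Snrpb2 (r = 0.996) and Cox17 (r = 0.993). Isg15 was most like Leprotl1 (r = 0.999) and Spsb2 (r = 0.995). Irf7 was most like Fam195b (r = 0.96), and Ifit1 most like Ufsp2 (r = 0.973). Oasl2 was most like Rpa3 (r = 0.955) and Ifi27l2a (r = 0.954), an interferon-stimulated gene at 7.02 and 7.19, 41.5 and 2.06, and 152 and 159 RPKM. Ifit3 had the lowest likeness, with Cfp (r = 0.875) and the immunoproteasome subunit Psmb9 (r = 0.873). Rsad2 was most like Sp110 (r = 0.966), itself an interferon-stimulated gene, which was at 83.4 and 109 RPKM in fresh marrow and 33.1 and 36.8 RPKM at day 7, and Xkrx (r = 0.958). These values are a description.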

How the data were processed

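Gene expression was measured in 6 libraries, 2 per day. Per the labels' protocols, SMARTer v3 Ultra Low Input cDNA was made from RNeasy total RNA and tagged with a NexteraXT kit. The deposited values are RPKM per gene with Entrez ID, symbol and exon length, per the file headers. Per the submitters' processing notes, TopHat2 2.0.13, SAMtools 1.1 and build mm9 were used, in roles not stated. For the counter, annotation and strand the entry is "not given in the sources used here", so reads of overlapping or antisense genes cannot be told apart. Coordinates are those of the RefSeq promoter table (GRCm38.p6), not of mm9.

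RPKM times length gave whole reads in every library (largest distance 6.88e-05 reads), from which depths and pooled ratios were computed, with exact 95% intervals that cover counting error only. Tests covered the 19279 genes that reached 1 RPKM in 2 or more libraries. Values were fitted as log2(RPKM + 1) with limma (version 3.58.1, under R 4.3.3; 1 model of 3 day means, moderated with a mean trend, 3 residual degrees of freedom), two-sided, with Benjamini-Hochberg adjustment over all genes tested. The script was tested on simulated data. Figures were drawn with matplotlib 3.10.9.

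The 9 genes, the lists and the tests were chosen with earlier results of these data known. Named genes were all 9, fixed pathway and marker genes, and from other lists every called gene where 6 or fewer were called, otherwise up to 4 of the highest mean and 4 of the smallest adjusted p; a subset is given. Cmpk2 and Ifit3b were added after their values were seen. Alternatives were pseudocounts of 0.1 and 5, no filter and a filter at 20 RPKM, quantile and median-ratio scaling, no trend, weights per library, voom on recovered reads, thinning to the smallest library, a fit on 2 groups, and omission of each library. Subtraction of the receptor background was added after seeing the data. Values of 1 gene of the lists and of 1 gene of like pattern are not reported here.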

Additional observations from a re-analysis of the deposited data

How the results depend on the processing

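Of the 7 calls among the 9 genes, none changed direction under the 18 alternatives, 98 recomputed values kept the call and 28 lost it. For day 4 against day 0, 1 gene was called higher, 0 with weights per library or voom, and 0 to 2 with a library left out. For day 7 against day 4, 1 was called higher, 0 with a pseudocount of 0.1, quantile normalization or thinning, 3 with a filter at 20 RPKM, weights per library or a fit on 2 groups, 5 with voom, and 0 to 3 with a library left out. For day 7 against day 0, 4 were called higher, 2 with quantile normalization or thinning, 3 with no filter, 5 with weights per library or a fit on 2 groups, 6 with median-ratio scaling (Irf7 and Oasl2 added) and 2 to 5 with a library left out, and 1 was called lower, 0 with thinning or background subtraction and 0 to 1 with a library left out. All-gene counts of higher calls moved too. For day 4 against day 0 they were 705, 0 with weights and 116 with voom. For day 7 against day 4 they were 1127, 493 with quantile normalization, 1138 with weights, 1963 on 2 groups and 2396 with voom. A filter at 20 RPKM gave 1179 of 3960. For day 7 against day 0 they were 2183, 1245 with quantile normalization, 1991 with weights, 1573 on 2 groups and 2753 with median-ratio scaling. Thinning gave 330 and 933 in these 2. Background subtraction also left 4 of the 9 called higher at day 7 against day 0, but not the same 4. Ifitm3 (limma adjusted p = 0.0923) and Ifitm2 (limma adjusted p = 0.161) lost the call there. Irf7 (limma adjusted p = 0.0461) and Ifit1 (limma adjusted p = 0.0453) gained it. Uncalled differences changed sign in 23 cases. For day 4 against day 0 these were Ifit3 (-0.28 with a pseudocount of 0.1, -1.52 with voom, -1.76 to 1.78 with a library left out), Oasl2 (-0.090 with a pseudocount of 0.1, -0.90 with voom, -0.57 thinned, -1.68 to 1.79), Ifitm2 (-0.56 with quantile normalization, -0.34 with voom, -0.20 thinned, -0.91 to 0.92) and Ifitm3 (-0.026 to 1.49). For day 7 against day 4 they were Ifit1 (0.11 with median-ratio scaling, 0.17 with voom, 0.045 with background subtraction, -1.18 to 0.90), Ifit3 (-0.88 to 2.67), Irf7 (-0.83 to 1.80), Isg15 (-0.27 to 1.08) and Rsad2 (-2.00 to 0.16). With background subtraction, Gbp7 (0.11), Gbp8 (0.42), Iigp1 (0.064) and Irf4 (0.21) changed sign at day 7 against day 0. The share of calls that were higher was 65.6% for day 4 against day 0, 37.5% with voom and 26.7% thinned, and 27.9% for day 7 against day 0, 90.9% with background subtraction. Causes of these changes were not tested, except that omitting a library leaves 1 in its group, assumed to vary like the others. No paired analysis was possible because the groups share at most 1 replicate number. Depth limits day 0, where 6 of the 9 genes had at most 6 reads per library.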
